A study of Mus musculus with 2 samples.

Results

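The 8 genes described here serve the uptake, synthesis or breakdown of betaine, taurine, inositol or sorbitol, small organic solutes known as osmolytes. They were chosen by function, with earlier results of these data known. The set comprised 5 transporter genes (Slc6a12, Slc6a13, Slc6a6, Slc5a3 and Slc2a13) and 3 enzyme genes (Isyna1, Akr1b3 and Sord), out of 20653 genes that could be named on the array. Their 10 probes were all those designed on a RefSeq transcript of a listed gene. Cells were monocytic myeloid-derived suppressor cells (M-MDSCs), immature cells of the monocyte lineage that dampen T-cell responses, taken from tumours of mice on a normal-salt diet (NSD) or a high-salt diet (HSD). All mice of both groups were female BABL/c mice that had been starved for 1 day and then given 1000000 4T1 cells, a mammary carcinoma line, into the left armpit. The NSD group received chow with 0.4% NaCl and tap water, the HSD group received chow with 4% NaCl and drinking water with 1% NaCl, and both diets lasted 16 days. The labels give no age. M-MDSCs were enriched with a magnetic bead kit, equal numbers of cells were pooled within a diet group, and each pool was hybridised to 1 single-colour array. No value below therefore carries a spread between mice, and the diets were compared without a test.

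When the fluid around a cell becomes hypertonic, the cell shrinks and first restores its volume with salt, then replaces that salt with osmolytes, which do not disturb proteins. SLC6A12, also named BGT1, carries betaine and GABA into cells, SLC6A13 carries GABA and also taurine and betaine, SLC6A6 carries taurine, and SLC5A3 and SLC2A13 carry myo-inositol with sodium or with protons. ISYNA1 catalyses the first step of inositol synthesis from glucose 6-phosphate, AKR1B3 is aldose reductase, which turns glucose into sorbitol, and SORD oxidises sorbitol to fructose. NFAT5 is the transcription factor best known for switching on Slc6a12, Slc6a6, Slc5a3 and Akr1b3 in hypertonic kidney medulla, through a DNA element named the tonicity-responsive element (TonE).

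Both arrays were on the same slide and in the same scan, and no spot was saturated. Of the 39413 probes measured, the NSD array detected 71.9% as well above background and the HSD array 72.4%. Signals are Feature Extraction's processed signals in intensity units, given as scanned, with the error that the software estimates for the spot, which covers the measurement within an array only. A log2 difference is the NSD value taken from the HSD value, once each array had been scaled to its 75th percentile, which was 252.2 for NSD and 232.9 for HSD. A probe was counted as different at a fold change of 1.5 or more. Values of different probes cannot be ranked against each other, because probes differ in brightness for the same amount of RNA. In pooled cells a change in the number of cells that express a gene and a change in RNA per cell cannot be told apart.

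The SLC6 carriers of betaine and GABA were the members that differed most between the diets. Slc6a12 and Slc6a13 were 17.4-fold and 5.84-fold higher in the HSD pool (log2 differences of 4.12 and 2.55, or 3.0 and 2.26 with normexp background correction), whereas the taurine carrier Slc6a6 differed by 1.30-fold. The inositol carriers Slc5a3 and Slc2a13 were close to the detection limit, and the genes of sorbitol synthesis and use, Akr1b3 and Sord, were slightly lower with HSD. Member probes that stood well above background on 1 array or both numbered 9, and 3 of these were higher with HSD by 1.5-fold or more and 0 lower by that much. Among all 29628 such probes the shares were 10.2% higher and 8.91% lower. Probes past 1.5-fold were higher in 53.4% of cases after scaling to the percentile and in 42.4% after cyclic loess, which moved the median difference of all probes by −0.11. Counted by the brightest probe, 3 of the 8 genes were higher and 0 lower, against 9.85% and 10.3% of the 16332 genes with signal well above background on an array, of which 20 had no bound above 1-fold and so no fold change.

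**Figure D1:**
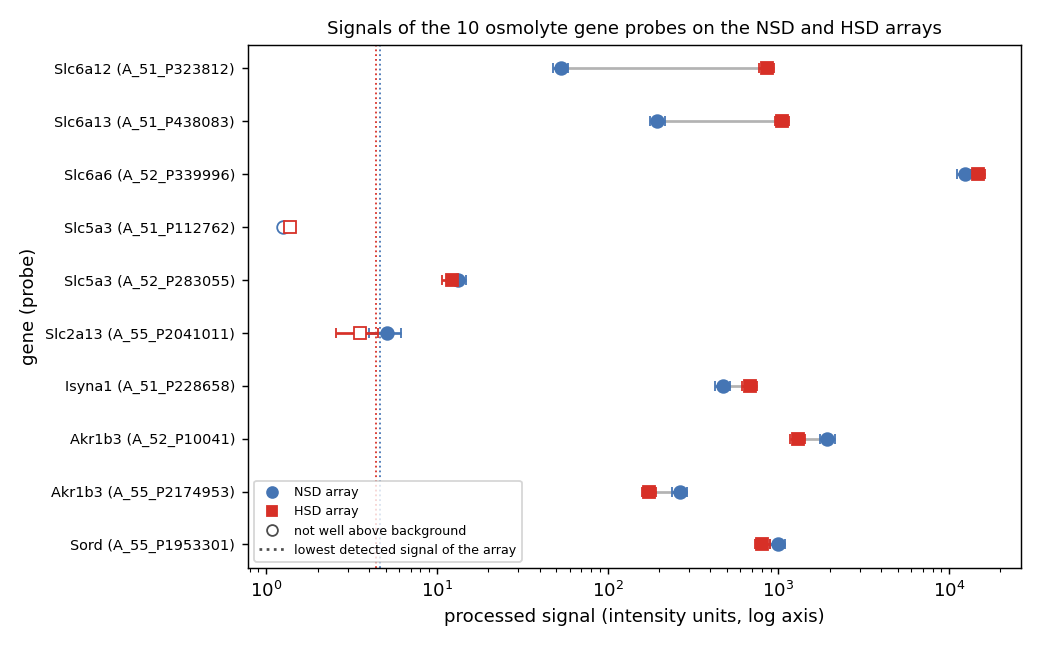
Processed signal (intensity units, log axis) of the 10 probes of the 8 genes on the NSD array (circles) and the HSD array (squares), with bars for the error estimated by the scanner software and open symbols for signals not well above background. The gap between the arrays is widest for Slc6a12, from 53.5 to 859.4, and next for Slc6a13, from 195.7 to 1055, while the other probes lie close together.

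The Slc6a12 probe, printed as a single spot, gave 53.5 ± 5.45 with NSD and 859.4 ± 86.0 with HSD. Before any correction, the median pixel of this spot read 73 with NSD and 784 with HSD, over local backgrounds of 18 and 17. The spot was thus clear of its surroundings on both arrays, and the difference was visible in the uncorrected scan. Its log2 difference was 4.12 with an error of 0.21 from the software's estimates, which put it at place 4 of 15209 genes well above background on both arrays, counted from the highest. The Slc6a13 probe gave 195.7 ± 19.6 with NSD and 1055 ± 105.5 with HSD, and its uncorrected spot median read 218 and 1103 over backgrounds of 17 and 17. Its log2 difference was 2.55 with an error of 0.20, at place 17 of the same genes. Each of these genes had 1 probe with 1 spot, so a repeat within the array was not available. For comparison, probes printed in at least 5 spots varied between spots of an array by a median SD of 0.082 on the log2 scale at signals from 30 to 300 and of 0.059 at signals from 300 to 3000, with largest values of 0.43 and 0.56.

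Both genes are shown by their promoters because they lie side by side on chromosome 6 and were both higher with HSD. The windows run from 250 bases before to 50 bases after a start site annotated by RefSeq (assembly GRCm38.p6, plus strand), and capitals mark the stretch that matches the TonE consensus as it is written for NFAT5. RefSeq lists 5 such windows for Slc6a12 and 3 for Slc6a13, and 1 window of each held a match.
Slc6a12, chr6:121342324-121342623: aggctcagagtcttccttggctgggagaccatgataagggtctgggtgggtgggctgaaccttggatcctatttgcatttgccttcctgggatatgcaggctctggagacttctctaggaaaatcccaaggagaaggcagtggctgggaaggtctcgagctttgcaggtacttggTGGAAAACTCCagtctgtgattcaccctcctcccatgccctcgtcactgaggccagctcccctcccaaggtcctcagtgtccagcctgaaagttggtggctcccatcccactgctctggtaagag
Slc6a13, chr6:121303389-121303688: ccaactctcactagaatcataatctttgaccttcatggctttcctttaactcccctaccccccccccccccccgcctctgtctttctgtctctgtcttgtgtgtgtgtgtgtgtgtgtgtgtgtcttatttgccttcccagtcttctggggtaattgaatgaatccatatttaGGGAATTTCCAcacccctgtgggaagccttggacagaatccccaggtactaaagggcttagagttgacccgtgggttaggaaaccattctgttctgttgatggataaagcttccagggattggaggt

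In the Slc6a12 window the match starts 75 bases before the annotated start and reads on the plus strand. In the Slc6a13 window it starts 77 bases before the start and reads on the minus strand, as TGGAAATTCCC. The other 4 windows of Slc6a12 and the other 2 of Slc6a13, those at the most upstream starts of Slc6a13 included, held neither the consensus nor its core TGGAAA on either strand. Single windows of Slc5a3, Slc2a13, Isyna1 and Sord held neither as well. Searched on both strands, the consensus was present in 4.96% of all 32851 windows of this length, and the core TGGAAA, which every match to the consensus contains, in 21.4%. Counted by gene, 5.74% of 27025 genes had the consensus in a window, and a gene with more windows has more places for a match. A match describes the letters of the window and not the binding of a factor. No entry was at hand for Slc6a6 and Akr1b3.

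The genes that border the pair were lower with HSD on the one side and not well above background on the other. In annotation order the protein-coding genes before it are Mical3, Pex26, Tuba8 and Usp18, and those after it are Iqsec3, A2m, Mug1 and Mug2, a choice of neighbours made after the values of the pair had been seen. Usp18, which removes the ubiquitin-like ISG15 from proteins and borders Slc6a13, had signals of 2220 with NSD and 358.5 with HSD, a log2 difference of −2.52. Tuba8, an alpha-tubulin gene, had signals of 443.7 and 235.9 (log2 difference −0.80), and Pex26, a gene of peroxisome assembly, had 147.9 and 155.1 (log2 difference 0.18). Iqsec3, which borders Slc6a12, A2m and Mical3 were not well above background on either array. Mug1 had signals of 8.56 and 6.61 (log2 difference −0.26, and 0.026 with normexp background correction). Farther along, Mug2 was higher with HSD by at least 4.05-fold (log2 difference 0.31 with normexp), with a signal of 17.2 against 3.81, the latter not well above background.

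**Figure D2:**
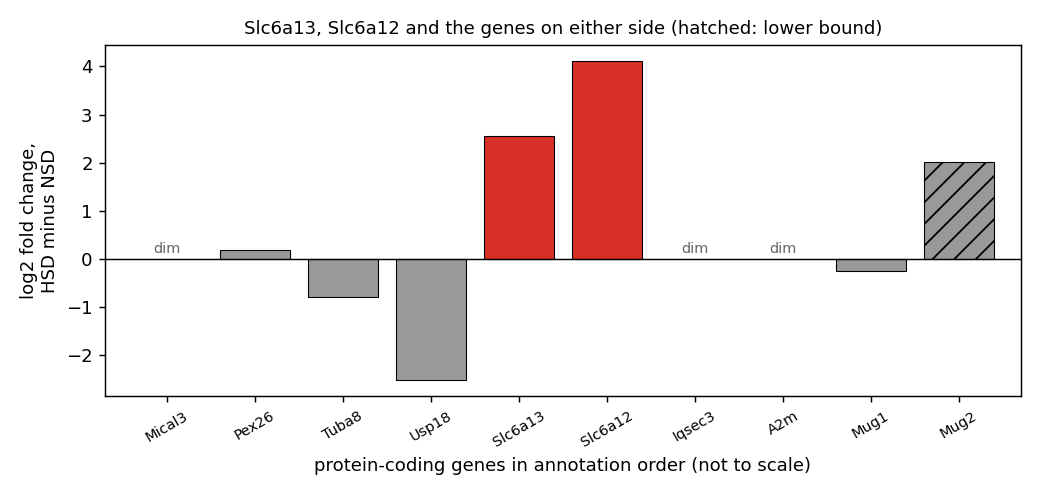
Log2 fold change (HSD minus NSD) of Slc6a13 and Slc6a12 (red) and the protein-coding genes around them (grey) in annotation order, not to scale, with a hatched bar for a lower bound and "dim" for genes not well above background on either array. Slc6a13 and Slc6a12, at 2.55 and 4.12, stand between Usp18 at −2.52 and a dim Iqsec3.

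Slc6a6, the taurine carrier, gave 12321 ± 1232 with NSD and 14838 ± 1484 with HSD. The scaled log2 difference of 0.38 had an error of 0.20, and the value lay between 0.26 and 0.42 over the 8 ways of processing tried. Slc6a6 was thus well measured in both pools, higher with HSD under every setting, and below 1.5-fold under every setting. Slc6a12, Slc6a13 and Slc6a6 belong to the same family, and their log2 differences of 4.12, 2.55 and 0.38 were spread over a range much wider than the errors of the spots.

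Slc5a3, the sodium-coupled inositol carrier, had 2 probes. The first was printed in 10 spots per array, and 0 of these spots was well above background on either array. Its spots ranged from 0.939 to 2.40 with a median of 1.14 in the NSD pool, and from 0.930 to 2.89 with a median of 1.21 in the HSD pool, where 9 spots were used because 1 was marked as an outlier. The arrays overlapped throughout, and no fold change was given for this probe. The second probe was a single spot well above background on both arrays, with a signal of 13.2 ± 1.62 in the NSD pool and 12.3 ± 1.53 in the HSD pool. Its log2 difference was 0.011 with an error of 0.25, and it changed sign with the scaling, between −0.073 under cyclic loess and 0.067 with normexp. Slc2a13, the proton-coupled inositol carrier, had a signal of 5.07 ± 1.08 in the NSD pool, just above the lowest detected signal of that array (4.61), and of 3.54 ± 0.979, not well above background, in the HSD pool. Its bound, 1.07-fold lower with HSD, was smaller than its error, so no direction was resolved. A probe dim only on the HSD array can receive only a negative value or none, so the sign was set by that rule.

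Isyna1, the enzyme that starts inositol synthesis, gave 475.3 ± 47.5 with NSD and 681.4 ± 68.2 with HSD. Its log2 difference was 0.63 with an error of 0.20, a 1.55-fold difference that only just passed the threshold. Under cyclic loess it was 0.57 and with normexp 0.48, both below 1.5-fold, and it was at least 1.5-fold under the other 6 ways of processing. Isyna1 was therefore higher with HSD throughout, by an amount that the choice of processing placed on either side of 1.5-fold.

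Akr1b3, aldose reductase, was the member measured by separate probes that could be compared. The brighter probe gave 1939 ± 193.9 with NSD and 1302 ± 130.2 with HSD, a log2 difference of −0.46 with an error of 0.20. The other had 263.9 ± 26.4 and 175.5 ± 17.6, a log2 difference of −0.47. The probes gave nearly the same difference although their signals were far apart. Sord, which takes sorbitol on to fructose, gave 995.0 ± 99.5 with NSD and 807.4 ± 80.7 with HSD, a log2 difference of −0.19 that was smaller than its error of 0.20. Both genes of the sorbitol route were lower with HSD under every way of processing, Akr1b3 by log2 values from −0.56 to −0.29 and Sord from −0.26 to −0.18, and neither reached 1.5-fold.

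**Figure D3:**
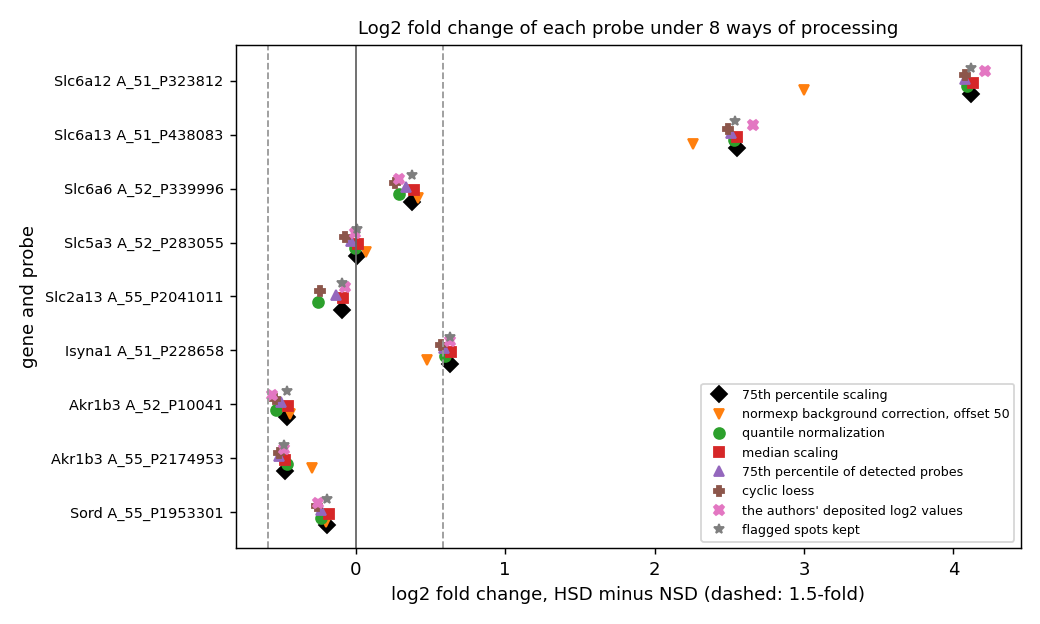
Log2 fold change (HSD minus NSD, horizontal axis) of the 9 member probes with a fold change under 8 ways of processing, each with its own symbol, and dashed lines at 1.5-fold (Slc2a13 has no normexp value). Slc6a12 and Slc6a13 lie beyond the upper line under every setting, with their lowest values, 3.0 and 2.26, under normexp, whereas Isyna1 straddles it.

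Over the 8 genes the log2 differences had a median of 0.20, against 0.045 for all 16312 genes with a fold change, and 5 were above 0 and 3 below. Those below 0 include Slc2a13, whose sign was set by the detection rule. The median lay between 0.092 and 0.20 under the ways of processing other than normexp, with 4 or 5 genes above 0, and was 0.42 over the 7 genes that normexp left. Apart from Slc6a12 and Slc6a13, the members lay between −0.46 and 0.63. Slc6a6 at 0.38 was higher than 81.5% of the 15209 genes well above background on both arrays, Isyna1 higher than 92.7%, Slc5a3 higher than 46.6%, Sord higher than 28.8% and Akr1b3 higher than 13.4%.

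**Figure D4:**
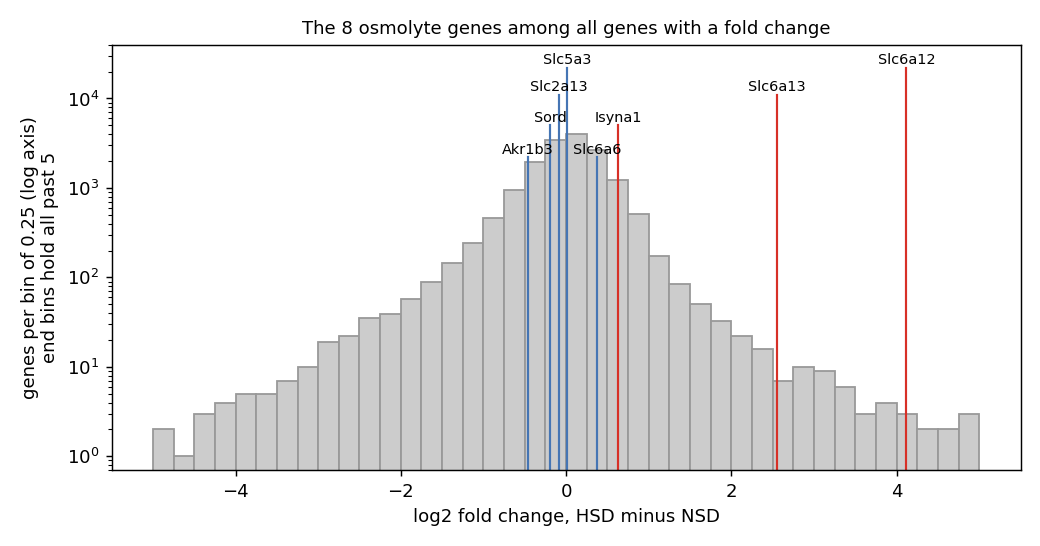
Histogram of the log2 difference (HSD minus NSD) of all 16312 genes with a fold change, on a log count axis, with vertical lines for the 8 genes, red where the gene is past 1.5-fold. Slc6a12 at 4.12 and Slc6a13 at 2.55 lie in the sparse upper tail, and the other 6 genes lie in the bulk.

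Genes that supply, use or store the same solutes were described next, from lists written from general knowledge, with earlier results of these data known. Of 11 genes of choline and betaine metabolism, all with a fold change, 3 were higher by 1.5-fold or more and 3 lower by that much, around a median log2 difference of −0.0051. Slc5a7, the high-affinity choline transporter, had a signal of 83.2 with HSD against 1.85, not well above background, with NSD, a difference of at least 19.5-fold, but neither array detected its other probe (1.12 and 1.17). Slc44a2, a choline transporter-like protein, had signals of 2510 and 3970 (log2 difference 0.78), whereas its relative Slc44a1 had 53.5 and 34.7 (log2 difference −0.51, and −0.20 with normexp). Chka, choline kinase alpha, had 170.0 and 242.8 on its brightest probe (log2 difference 0.63), and its other probes had log2 differences of 0.86 and 1.05. Those that were lower were Aldh7a1, an aldehyde dehydrogenase that can complete betaine synthesis, with 165.4 and 96.7 (log2 difference −0.66), and the betaine-using and dimethylglycine-using enzymes Bhmt2, lower by at least 2.72-fold, and Dmgdh, lower by at least 2.09-fold, whose HSD signals were both not well above background. Chkb, the other choline kinase, had 820.8 and 878.3 (log2 difference 0.21). Chdh, which oxidises choline on the way to betaine, was at 43.9 and 40.7 (log2 difference 0.0072). With normexp only Slc5a7 (1.17) and Slc44a2 (0.76) of this list were past 1.5-fold, and the value of Bhmt2 was −0.20 and that of Dmgdh −0.080.

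Of 8 genes of taurine synthesis and transport, 6 had a fold change, of which 1 was higher by 1.5-fold or more and 0 lower, and the median was 0.13. Slc16a6 had signals of 5368 and 5864 (log2 difference 0.24), and Csad, which makes hypotaurine from cysteine sulfinate, had 183.4 and 187.9 (log2 difference 0.15). The higher gene was Fmo1, which oxidises hypotaurine, with a log2 difference of 0.74 (0.17 with normexp), but its other probe pointed the opposite way, from 33.0 with NSD to 3.63, not well above background, with HSD, a bound of 6.94-fold. Of 6 genes of inositol handling, 1 was higher and 1 lower by 1.5-fold or more, with a median of 0.071. Inpp1, which strips phosphate from inositol phosphates, had signals of 340.1 and 595.9 (log2 difference 0.92, and 0.79 with normexp). Slc5a11, another sodium-coupled inositol carrier, had 30.6 and 16.3 on its brighter probe (log2 difference −0.79, and −0.15 with normexp, where 0 genes of the list were lower by 1.5-fold) and 7.64 and 8.97 on the other (log2 difference 0.35). Cdipt, which builds inositol into phosphatidylinositol, had 1481 and 1232 (log2 difference −0.15). The inositol monophosphatase genes Impa1 and Impa2, which complete the route that Isyna1 begins, had log2 differences of 0.22 and 0.31.

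Of 9 polyol genes, 8 had a fold change and 7 of these were below 0 with a median of −0.46, between −0.51 and −0.15 over all ways of processing, and the same count of 7 was below 0 under each. All ways of processing used the same arrays, and Slc2a5, dim only with HSD, could receive no value above 0. Of all 16312 genes, 45.8% were below 0. At least 1.5-fold lower were Akr1b10, a relative of aldose reductase, with 313.9 and 187.3 (log2 difference −0.63), and the fructose carrier Slc2a5, with a bound of 1.75-fold since its HSD signal was not well above background. At least 1.5-fold higher was the glucose carrier Slc2a1, with 4731 and 6751 (log2 difference 0.63). Khk, which phosphorylates the fructose that Sord makes, had 786.6 and 520.6 (log2 difference −0.48), and the aldehyde reductase Akr1a1 had 7964 and 5774 (log2 difference −0.35). With normexp 0 of the list were at least 1.5-fold lower. Akr1b3, Akr1b8 and Akr1b10 are neighbours and close relatives, and whether probes of this family read each other's RNA was not tested. Of 5 genes that make or break down glycerophosphocholine, another osmolyte, 0 were higher and 1, Gdpd5, was lower by at least 1.5-fold, with signals of 9.42 and 5.39 and a log2 difference of −0.69 that was 0.016 with normexp. The median of this list was 0.18, and its brightest members, the phospholipase genes Pnpla7 and Pnpla6, had log2 differences of 0.35 and 0.18.

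Nfat5 itself gave 118.7 with NSD and 151.1 with HSD (log2 difference 0.46, and 0.11 with normexp), below 1.5-fold. Of 8 measured genes in the list of NFAT5 and other genes linked to hypertonicity, Mapk14 included, 1 was higher and 1 lower past 1.5-fold, with a median of 0.063. Over all genes the shares were 9.85% higher and 10.3% lower. Slc38a2, which imports amino acids that also serve as osmolytes, had 2293 and 5519 (log2 difference 1.38). Aqp1, a water channel, had 29.6 and 6.00 (log2 difference −2.19, and −0.31 with normexp). Mapk14, the p38 kinase gene, had 17112 and 15731 (log2 difference −0.0071), and Sgk1 had 6769 and 6473 (log2 difference 0.050).

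**Figure D5:**
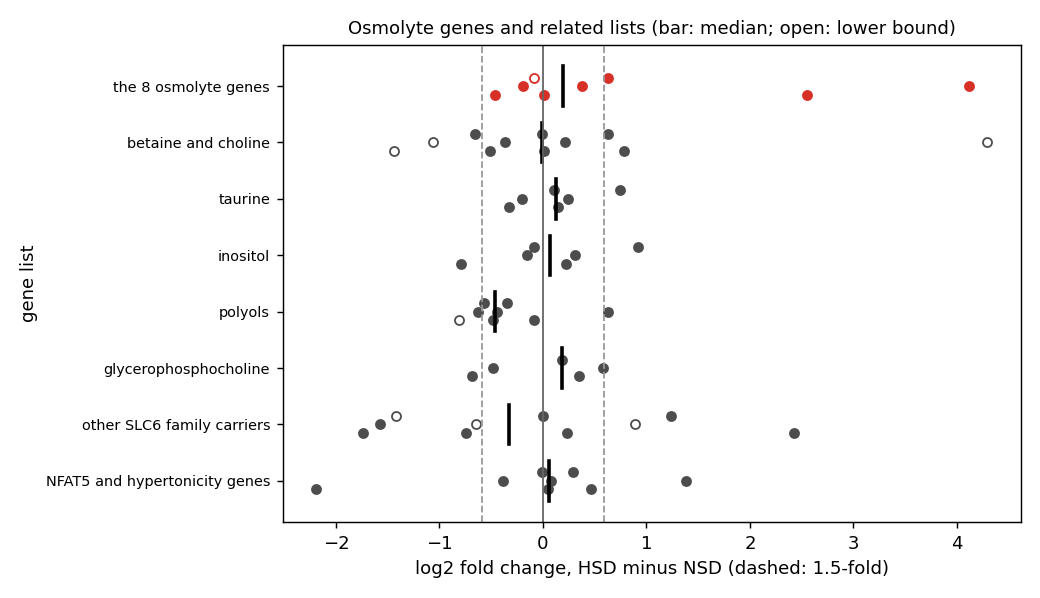
Log2 fold change (HSD minus NSD, horizontal axis) of each gene of the 8 osmolyte genes (red) and of 7 related lists (dark grey), by brightest probe, with open symbols for lower bounds, black bars for medians and dashed lines at 1.5-fold. The polyol list has 7 of 8 genes below 0, and the other lists spread to both sides.

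The cell type named by the labels was checked against lists of markers. The monocyte genes Ly6c1 (51811 with NSD and 48478 with HSD) and Itgam (31564 and 31043) were far above background in both pools, as were the neutrophil-lineage genes S100a8 (57914 and 56478), Csf3r (53939 and 54723) and Ngp (19224 and 19703). Other monocyte genes differed more. Ccr2 had 258.9 and 139.0 (log2 difference −0.78), Csf1r and F13a1 each had a log2 difference of −0.37, and Chil3 had 34255 and 49710 (log2 difference 0.65). Ly6c2, Ly6g and Cd68 had no probe that could be named. Sums of the signals of a list are given with the HSD sum scaled to the 75th percentile of the NSD array. They were 130243 with NSD and 149606 with HSD for the monocyte list and 190437 and 201374 for the neutrophil list, and 3 of 6 and 4 of 6 of their genes were higher with HSD. All 5 macrophage genes were lower with HSD (median log2 difference −1.36, sums of 18309 and 13411), among them Mrc1 with 134.3 and 5.49. The median is the bound of C1qa, at signals of 12.2 and 4.01. Most of the sum came from Adgre1 (6723 and 4252, log2 difference −0.55) and from Csf1r (11343 and 8112, log2 difference −0.37), which is in the monocyte list too. All 4 platelet genes were lower too (median −1.83, sums of 1416 and 291.4). Of the genes of carcinoma cells of epithelial type, 4 of 5 were higher and 3 of these, Epcam (14.5 and 21.8), Krt8 (8.68 and 12.2) and Krt18 (15.9 and 25), by 1.5-fold or more, with a median log2 difference of 0.61 and sums of 108.4 and 122.8. Krt14 was nearly level (24.3 and 23.5, log2 difference 0.069), and Cdh1 was lower (45 and 30.8, log2 difference −0.43). For dendritic cells 3 of 4 genes were higher (13962 and 14675, Xcr1 not well above background on either array), for T and NK cells 2 of 5 (482.7 and 483.9, Ncr1 likewise), for B cells 3 of 3 (2570 and 3244) and for endothelial cells 3 of 4 (249.3 and 298.0). Nearly all of the dendritic cell sum came from the Siglech probe (13705 and 13214 as scanned). For fibroblasts 0 of 3 were higher (132.3 and 114.8), and the defining genes Pdgfra and Lum were not well above background on either array. In the pool in which Slc6a12 and Slc6a13 were higher, 4 of the 5 epithelial genes were higher as well, Krt14 by only 0.069, and the macrophage and platelet genes were lower. Of all 16312 genes with a fold change, 45.8% were below 0. The 3 epithelial genes past 1.5-fold had signals of 25 or less. Probes printed in at least 5 spots with signals below 30 had a median spot SD of 0.20 and a largest of 0.76. The part of these cell types in the differences of Slc6a12 and Slc6a13 was not tested.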

How the data were processed

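The study deposited Feature Extraction 11.0.1.1 output for 1 NSD and 1 HSD array (Agilent Mouse GE v2, Cy3), whose processed signal is an intensity that the authors left background-subtracted and detrended, without normalization between arrays. The authors also deposited log2 values normalized with GeneSpring, by a method not given in the sources used here, which served as an alternative. No per-sample column was left out (0).

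Control spots and outlier spots (162 on the NSD and 179 on the HSD array) were removed, spots of a probe were averaged on the log2 scale, and every array was brought to its own 75th percentile. Detection required 50% of a probe's spots to be well above background. A probe dim on 1 array received a bound, the bright value over whichever was larger of its dim signal and that array's smallest detected signal (4.61 for NSD, 4.39 for HSD). Gene names came through unversioned RefSeq identifiers (27223 of 39413, 69.1%, RefSeq of GRCm38.p6, while the array was annotated on mm9, so no coordinates are given but those of the RefSeq promoter windows), and the brightest probe stood for a gene. The errors of log2 differences combine the software's spot errors.

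The text names all 8 members, the genes of the lists at least 1.5-fold different together with Nfat5 and the best expressed ones, the 3 genes nearest to Slc6a12 in log2 difference, and defining and bright cell type markers. The lists of related genes covered betaine and choline, taurine, inositol, polyols, glycerophosphocholine, other SLC6 carriers and genes linked to hypertonicity. Chdh, Slc44a1, Impa1, Khk and the neighbouring genes were added by function or position after their values had been seen. Members and lists were chosen with earlier results of these data known. Simulated arrays with known differences were used to test the counting. Alternatives were normexp (offset 50, on spot medians, since means are not in the scanner output), quantile, median and detected-probe scaling, cyclic loess, the deposited values, flagged spots kept, both other detection filters, a 2-fold threshold and medians over probes. Software comprised limma 3.58.1 in R 4.3.3, and pandas 2.3.3, numpy 2.4.6 and matplotlib 3.10.9 in Python 3.11.15. The result of 1 marker list is not reported here. The number of arrays limits the precision.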

Additional observations from a re-analysis of the deposited data

How the results depend on the processing

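Of the member probes, 3 were at least 1.5-fold higher under quantile, median and detected-probe scaling, the deposited values, flagged spots kept, both other detection filters and medians over probes, and 2 (Slc6a12 and Slc6a13) under normexp, cyclic loess and the 2-fold threshold. None (0) was at least 1.5-fold lower under any of these. For all probes, normexp gave 961 higher and 923 lower in place of 3030 and 2639, no filter on dim probes gave 6010 higher, and the 2-fold threshold gave 793 higher and 1039 lower. The offset of normexp pulls dim values together by construction. No paired analysis was possible because each diet has 1 array, and no array could be left out. Signals near 5 intensity units, as for Slc2a13, do not resolve a difference of the size seen.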

Other observations

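Other carriers of the SLC6 family, which moves neurotransmitters, amino acids and creatine, differed in both directions. Of 15 such genes with a named probe, 10 had a fold change, of which 3 were higher and 5 lower by 1.5-fold or more, with a median log2 difference of −0.32. With normexp 9 had a value, 2 were higher and 2 lower by 1.5-fold or more, and the median was 0.0053. Slc6a8, the creatine carrier, gave 596.3 with NSD and 165.5 with HSD (log2 difference −1.74, and −1.60 with normexp). Slc6a20a, a carrier of proline and betaine, had 102.7 and 31.9 (log2 difference −1.57, and −0.77 with normexp), lower in the pool in which Slc6a12 was higher. Slc6a9, a glycine carrier, had 39.7 and 86.7 on its brighter probe (log2 difference 1.24) and 35.4 and 91.4 on the other (log2 difference 1.48). Slc6a4, the serotonin carrier, had 15.1 and 75.3 (log2 difference 2.43, and 1.06 with normexp). Slc6a18, Slc6a19 and Slc6a20b were lower, by 1.67-fold, by at least 2.67-fold and by at least 1.57-fold, and Slc6a3 was at least 1.86-fold higher, all at low signals. With normexp the log2 differences of Slc6a18, Slc6a19 and Slc6a3 were −0.093, −0.12 and 0.094, and Slc6a20b had none. Slc6a2, Slc6a11, Slc6a14, Slc6a15 and Slc6a17 were not well above background on either array.

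Slc6a12, at a log2 difference of 4.12, had as its nearest genes among the 15209 detected by both arrays Ppp1r2-ps7 at 3.95 (signals of 6.15 and 88.0), the collagen gene Col16a1 at 4.36 (10.9 and 205.6) and the fibrinogen gene Fgb at 3.81 (10.4 and 134.4). Likeness here rests on 1 difference between 2 arrays.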
